A study of Mus musculus with 2 samples.

Results

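Accessible chromatin was measured by ATAC-seq, in which a transposase cuts open DNA, around 10 genes of Toll-like receptor signalling in colonic macrophages. The genes were 7 receptors (Tlr1, Tlr2, Tlr3, Tlr4, Tlr5, Tlr6 and Tlr9), the co-receptor gene Cd14 and the adaptor genes Myd88 and Ticam1. Their peaks were those overlapping the RefSeq gene span (GRCm38.p6, the assembly behind mm10) or the 10 kb on either side. This gave 48 of 128737 peaks in the WT list and 46 of 128129 in the Tle4cKO list. The WT library came from Lyz2-Cre mice and the Tle4cKO library from Tle4f/f Lyz2-Cre mice, so both groups carry the Cre, which is driven by Lyz2 in myeloid cells and thus also outside macrophages. All mice were untreated male C57BL/6 animals aged 18.9 weeks, and the sorted cells were negative for Siglec-F, low for Ly6C and positive for CD64. Each library held the cells of 2 mice pooled before sequencing. With 1 library per genotype there was no replicate check, and every difference below describes these libraries. The labels do not say which part of Tle4 is deleted, so the peaks give no check of the genotype.

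Toll-like receptors bind conserved microbial molecules and signal through adaptors to NF-kappaB and interferon regulatory factors. Tlr2 pairs with Tlr1 or Tlr6 to sense bacterial lipopeptides, Tlr4 senses lipopolysaccharide with the help of Cd14, and Tlr5 senses flagellin. Tlr3 and Tlr9 sense double-stranded RNA and unmethylated CpG DNA in endosomes. Myd88 serves all of these receptors except Tlr3, which uses Ticam1 (also called TRIF), as does Tlr4. Resident gut macrophages are known for taking up bacteria with little inflammatory response to such ligands. Tle4 encodes a Groucho-type corepressor, which is brought to DNA by factors such as RUNX, HES and TCF/LEF proteins.

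The deposited value of each peak is the pileup at its summit, the height of the stacked fragments, in whole numbers whose scaling between libraries is not given in the sources used here. Its median over each whole list was 28 for WT and 20 for Tle4cKO. A WT and a Tle4cKO peak were paired when neither overlapped a higher peak of the other library, which gave 92335 pairs, and WT had the higher pileup in 90.8% of them. A pair is therefore read below by its relative log2 ratio, the log2 of Tle4cKO over WT pileup minus the median of all pairs of like summed pileup. All 10 macrophage markers, among them Adgre1, Csf1r, Cx3cr1 and Fcgr1, had a peak within 1 kb of their start in both lists, with 133.5 and 103.5 as the median over genes of the highest pileup in WT and Tle4cKO. Of markers of other cells, peaks were found in WT and Tle4cKO at 1 and 1 of 4 T cell genes (Cd4, with Cd3e, Cd3d and Cd3g at none), 4 and 4 of 4 B cell genes, 2 and 1 of 4 neutrophil genes, 2 and 2 of 2 monocyte genes and 1 and 1 of 3 eosinophil genes. They were also found at 3 and 3 of 4 epithelial, 2 and 1 of 3 fibroblast and 3 and 1 of 3 endothelial genes. Some were as high as those of macrophage markers, which ran from 202 at Cd68 to 55 at Lyz2 in WT. Cd4 had 144 in WT and 118 in Tle4cKO, Col1a1 81 and 54, and Ccr2 79 and 65. Siglecf, the gene of the marker the sorted cells lacked, had 101 and 30. The 1 kb limit missed peaks just outside it at Siglecf, so these values need not belong to the same element. The B cell, neutrophil and epithelial genes had at most 69, 35 and 39 in WT. S100a9, Mpo, Epx, Prg2, Krt20 and Col3a1 had none. At Pecam1, the endothelial gene with the highest WT value (171), a Tle4cKO peak lay just outside the 1 kb and overlapped the WT peak. The part of other cells in the values below was not tested.

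The RefSeq promoter table held start sites for 8 of the 10 genes, and each of those 8 had a peak over at least 1 start site in both lists. The share of all genes with such a peak was not computed. The 250 bases before the start are shown for 6 of the 8 genes, chosen after the values were seen, and those of Tlr5 and Tlr6 are not shown. Tlr3 and Ticam1 are shown because the summits of both libraries fell inside these bases, and Tlr2, Tlr9 and Myd88 for the motif matches described next. The paired windows of Tlr1 are shown because the summit lay nearest a different start in each library. Sequences are from RefSeq (GRCm38.p6), read 5′ to 3′ towards the gene. Capitals mark matches on either strand to the motifs PU.1 (GAGGAAGT), NF-kappaB (GGGA and CC around any 4 bases), ISRE (GAAA on each side of any 2 bases), AP-1 (TGANTCA), C/EBP (TTGCNNAA), RUNX (TGTGGT), TCF/LEF (ATCAAAG), CRE (TGACGTCA), E box (CACGTG) and SP/KLF (GGGCGG).
Tlr2 (chr3:83841609-83841858, minus strand): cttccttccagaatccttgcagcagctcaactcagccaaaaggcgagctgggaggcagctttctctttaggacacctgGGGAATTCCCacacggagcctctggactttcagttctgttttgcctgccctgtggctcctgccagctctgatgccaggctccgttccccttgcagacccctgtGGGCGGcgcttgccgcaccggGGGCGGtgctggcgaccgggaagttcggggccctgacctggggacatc
Tlr3 (chr8:45410381-45410630, minus strand): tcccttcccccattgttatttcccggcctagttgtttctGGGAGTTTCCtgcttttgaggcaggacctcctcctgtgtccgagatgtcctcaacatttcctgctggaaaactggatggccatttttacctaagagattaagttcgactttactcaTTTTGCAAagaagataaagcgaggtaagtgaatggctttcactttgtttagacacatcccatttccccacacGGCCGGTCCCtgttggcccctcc
Tlr9 (chr9:106222348-106222597, plus strand): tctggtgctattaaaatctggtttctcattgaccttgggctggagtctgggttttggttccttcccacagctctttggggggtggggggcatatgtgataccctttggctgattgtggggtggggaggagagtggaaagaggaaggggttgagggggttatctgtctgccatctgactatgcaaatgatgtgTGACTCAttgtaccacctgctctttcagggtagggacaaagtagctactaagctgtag
Myd88 (chr9:119340019-119340268, minus strand): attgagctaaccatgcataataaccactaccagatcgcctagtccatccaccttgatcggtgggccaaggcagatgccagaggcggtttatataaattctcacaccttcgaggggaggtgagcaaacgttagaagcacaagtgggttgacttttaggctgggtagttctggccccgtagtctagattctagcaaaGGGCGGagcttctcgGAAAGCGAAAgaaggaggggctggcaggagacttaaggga
Ticam1 (chr17:56276768-56277017, minus strand): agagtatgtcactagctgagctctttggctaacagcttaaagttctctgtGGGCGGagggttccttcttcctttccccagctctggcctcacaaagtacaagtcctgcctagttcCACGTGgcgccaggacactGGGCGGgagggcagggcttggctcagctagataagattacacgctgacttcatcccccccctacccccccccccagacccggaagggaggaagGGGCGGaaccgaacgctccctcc
Tlr1, upstream start (chr5:64933559-64933808, minus strand): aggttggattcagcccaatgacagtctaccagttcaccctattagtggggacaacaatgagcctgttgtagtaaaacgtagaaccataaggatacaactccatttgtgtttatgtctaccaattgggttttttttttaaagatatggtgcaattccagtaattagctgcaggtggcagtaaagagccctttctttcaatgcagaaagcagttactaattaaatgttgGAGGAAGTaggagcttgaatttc
Tlr1, downstream start (chr5:64932700-64932949, minus strand): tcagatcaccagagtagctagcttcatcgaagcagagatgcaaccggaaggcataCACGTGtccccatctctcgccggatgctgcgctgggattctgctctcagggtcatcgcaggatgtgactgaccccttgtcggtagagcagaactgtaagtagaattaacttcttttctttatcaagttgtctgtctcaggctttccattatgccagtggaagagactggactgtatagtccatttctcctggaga

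Each motif was searched in 300 bases, from 250 before to 50 after the start, in the 10 windows of the 8 genes and in all 32851 windows of the table. The SP/KLF letters were found in 5 of the 10 windows (Tlr2, Tlr3, Tlr5, Myd88 and Ticam1) and in 35.7% of all windows. Tlr1 and Tlr6 have 2 windows each, and the shares of all windows given here are per window and not per gene. NF-kappaB letters were found in Tlr2, Tlr3 and Tlr5, against 20.7% of all windows, and the Tlr2 match before its start, GGGAATTCCC, began 172 bases upstream. Myd88 held the ISRE letters as GAAAGCGAAA from 40 bases before its start, and Tlr6 held overlapping matches to the same letters. All windows held them in 3.44%. The PU.1 letters were found before the upstream Tlr1 start, 23 bases from it, and just after the Tlr9 start, against 3.2% of all windows. Tlr9 also held AP-1 letters as TGACTCA, 58 bases before its start (7.81% of all windows). RUNX letters, the site of a known TLE partner, were found in Tlr6 alone of the 8 genes (16.8% of all windows), and TCF/LEF and CRE letters were found in none (3.73% and 1.79%). E box letters were found in Tlr1 and Ticam1 (7.15%) and C/EBP letters in Tlr3 and Tlr6 (10.8%). The NF-kappaB match of Tlr5 overlaps an SP/KLF match. These are letter matches and not measured binding.

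The surface receptors for lipopeptides were accessible in both libraries to very different degrees. At Tlr2 (chr3:83836272-83841824) each list held 4 peaks, all of them shared. The peak over its start (chr3:83840925-83842065 in WT) had a WT pileup of 137 and a Tle4cKO pileup of 117, and its summit lay 50 bp and 62 bp downstream of the start. A peak inside the gene had 120 and 88, a peak upstream of the gene had 146 and 111, and a weak peak beyond the other gene end had 30 and 24. The relative log2 ratios of these 4 pairs ran from -0.04 to 0.26, so that Tlr2 kept the same set of elements at like heights.

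Tlr1 (chr5:64924680-64933600) held 3 peaks in each list, again all shared. Its start peak was the lowest of the 10 genes, with a WT pileup of 58 and a Tle4cKO pileup of 36, yet it was 2598 and 2723 bp wide and covered both annotated starts. The WT summit lay 129 bp downstream of the upstream start, at 64933558, and the Tle4cKO summit lay 54 bp downstream of the other start, at 64932699. The summits were 784 bp apart, the largest shift among the 43 member pairs. The peak was low and broad in both libraries, and a change of start between them was not tested. The highest peak in the Tlr1 window lay beyond the other end of the gene, with 91 and 71.

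Tlr6 (chr5:64953092-64970942), the neighbour of Tlr1, held the highest pileup of any of the 7 receptor windows. That peak, inside the annotated span at chr5:64960200-64962099, had a WT pileup of 229 and a Tle4cKO pileup of 206 with the summit at the same base. It was 1900 bp wide in WT and 1468 bp in Tle4cKO. The peak next to it, over the annotated starts, had 138 and 98. In WT it covered both starts and in Tle4cKO the one at 64960048 only, since its border there lay at 64959190 and the other start is at 64959166. Another peak of the gene, with 148 and 111, had its summit 9831 and 9829 bp upstream of the nearest Tlr6 start in the table. That table holds no start at the upstream end of the Tlr6 span, at 64970942, which lies just beyond this peak. The summit of the peak lay 196 bp and 198 bp from the start of Fam114a1, which overlaps the upstream side of the Tlr6 span. This element therefore cannot be assigned to Tlr6. The 4 pairs had relative log2 ratios from -0.10 to 0.19.

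Genes for lipopolysaccharide sensing were open in both genotypes. At Tlr4 (chr4:66827551-66846581) lay 7 WT and 6 Tle4cKO peaks. The peak over the lower gene end (chr4:66827181-66829233) had a WT pileup of 162 and a Tle4cKO pileup of 131, with a relative log2 ratio of 0.02. The next highest, inside the gene, had 84 and 71. A weak pair inside the gene, with 20 and 13, was 744 bp wide in WT and 301 bp in Tle4cKO, the largest proportional narrowing of the 43 pairs. The 6 pairs had relative log2 ratios from -0.18 to 0.27.

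Cd14 (chr18:36725064-36726815) had 4 shared peaks in each list, and they covered 31.4% of its window in WT and 30.2% in Tle4cKO, the highest shares of the 10 genes. A peak 3012 bp wide in WT and 2725 bp in Tle4cKO spanned most of the short gene, with a pileup of 186 and 149. The peak at the start of the neighbouring Tmco6 span had 208 and 166. A weak peak inside the lncRNA gene Gm41699 (chr18:36715724-36716179) had 38 in both libraries. It was the only member pair without a higher WT value, and its relative log2 ratio of 0.57 was the highest of the 43. The raw ratio of 1 had a 95% interval of 0.621 to 1.61, which includes the 0.674 of pairs of like pileup.

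Tlr5, the flagellin receptor gene (chr1:182954752-182976044), held the most peaks, 8 in WT and 9 in Tle4cKO. The start peak had a WT pileup of 95 and a Tle4cKO pileup of 70, but the highest peaks lay elsewhere. An element inside the gene (chr1:182959025-182960582) had 119 and 99, and an element beyond the far gene end (chr1:182982831-182984008) had 124 and 82. In Tle4cKO the former was called as 2 peaks of 207 and 1167 bp. Both lists placed 3 further shared peaks on the start side within 10 kb, with 83 to 100 in WT and 65 to 68 in Tle4cKO. The 7 pairs ran from -0.24 to 0.15 in relative log2 ratio.

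The endosomal receptors differed from each other. Tlr9 (chr9:106222598-106226876) had the second highest start peak of the 10 genes, with a WT pileup of 195 and a Tle4cKO pileup of 154, and the summit lay 495 and 432 bp upstream of the start. A peak downstream of the gene had 165 and 125 and one inside it 102 and 78. The other 3 pairs were weaker and 2 of them lay within Alas1, the gene for a heme synthesis enzyme. All 6 pairs lay close to like pairs, from -0.07 to 0.13.

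Tlr3 (chr8:45395665-45411075) had the fewest WT peaks, 2. Its start peak had a WT pileup of 82 and a Tle4cKO pileup of 61, with the summit 139 and 102 bp upstream of the start and inside the sequence shown above. This peak was 1644 bp wide in WT and 1047 bp in Tle4cKO. The other element lay upstream of the gene (chr8:45414506-45416416) and had 96 in WT and 55 in Tle4cKO. Its relative log2 ratio of -0.32 was the lowest of the 43, and the single WT peak of 1911 bp was called as 2 peaks of 896 and 575 bp in Tle4cKO, with pileups of 55 and 16. The interval of the raw ratio, 0.573 (0.404 to 0.806), includes the 0.716 of like pairs, so it does not set this pair apart from them. Tlr3 also lost the largest share of covered sequence, from 10.0% of its window to 7.11%.

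The windows of the adaptor genes held some of the tallest elements. At Myd88 (chr9:119335934-119340018) the peak over the start was the highest start peak of the 10, with a WT pileup of 209 and a Tle4cKO pileup of 173. Its summit lay 1191 and 1186 bp upstream of the Myd88 start and 85 and 90 bp from the start of Acaa1a, which encodes a peroxisomal thiolase. The peak is shared by the 2 promoters, and its height cannot be divided between them. A peak beyond the other end of Myd88 had 123 and 85. At Ticam1 (chr17:56269462-56276767) the start peak had 177 and 148, with the summit 107 and 60 bp upstream, inside the sequence shown above. The highest WT peak of all members lay between Fem1a and Ticam1 (chr17:56264864-56266932), with 231 in WT and 186 in Tle4cKO. The 7 pairs of the adaptor genes lay between -0.13 and 0.20 in relative log2 ratio.

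**Figure D1:**
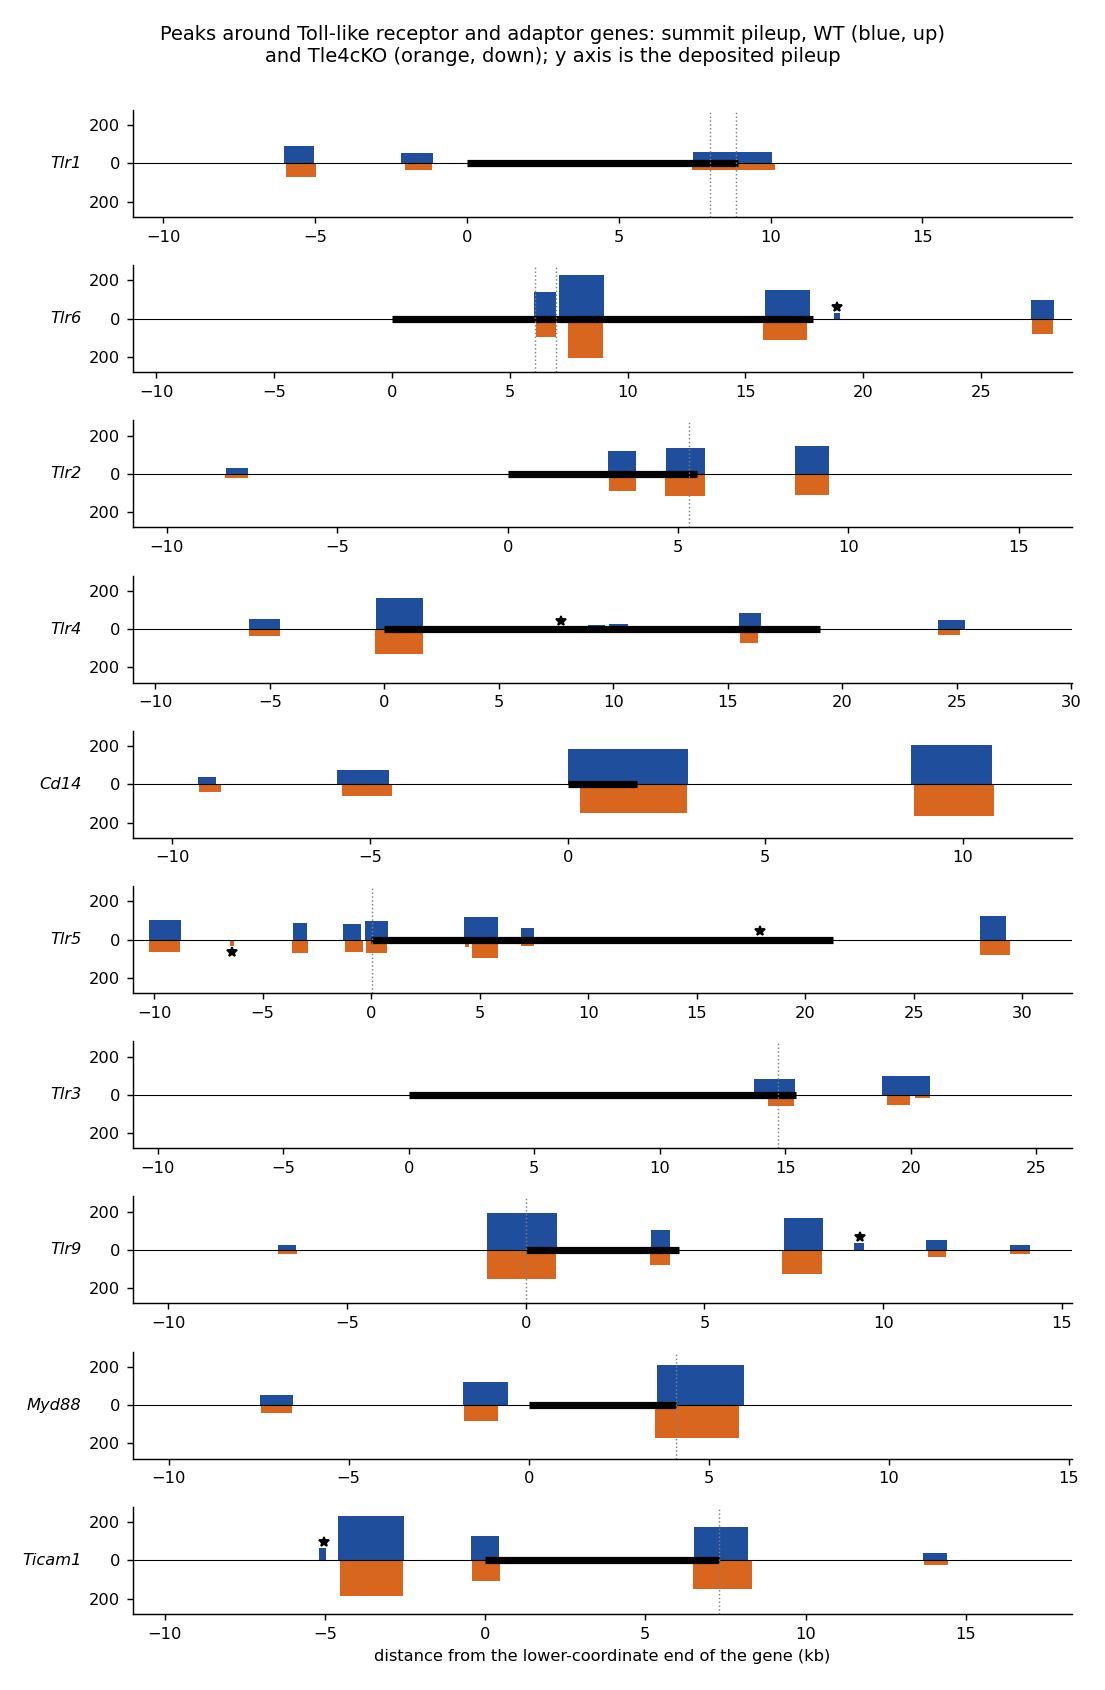
Peaks around the 10 genes: each bar spans a peak and its height is the deposited summit pileup, WT upwards in blue and Tle4cKO downwards in orange, against the distance in kb from the lower-coordinate gene end. Thick lines are genes, dotted lines RefSeq start sites and stars the 6 peaks found in 1 list only; nearly every blue bar has an orange counterpart.

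The start peaks kept almost the same order of height in the 2 libraries. For Tlr4 and Cd14, without a start site in the table, the peak over a gene end was used. For Tlr6 the peak over the starts in the table was used, and the table holds none at the upstream end of its span. The Myd88 peak is shared with Acaa1a, and its summit lay 85 and 90 bp from the Acaa1a start, so its rank is not that of Myd88 alone. From the highest, the WT order was Myd88 (209), Tlr9 (195), Cd14 (186), Ticam1 (177), Tlr4 (162), Tlr6 (138), Tlr2 (137), Tlr5 (95), Tlr3 (82) and Tlr1 (58). In Tle4cKO the pileups in that order were 173, 154, 149, 148, 131, 98, 117, 70, 61 and 36, so that Tlr2 and Tlr6 changed places and nothing else did. Of the 9 steps between neighbours, the step from Tlr2 to Tlr5 exceeded counting error in WT, with a ratio of 1.44 (95% interval 1.10 to 1.89). In Tle4cKO 2 steps did, from Tlr6 to Tlr5 (1.40, 1.02 to 1.93) and from Tlr3 to Tlr1 (1.69, 1.10 to 2.63). Pileup is a height per base, so these values do not depend on gene length. In WT the start peaks stood between the 71.3rd and the 99.1st percentile of all peaks of the list.

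**Figure D2:**
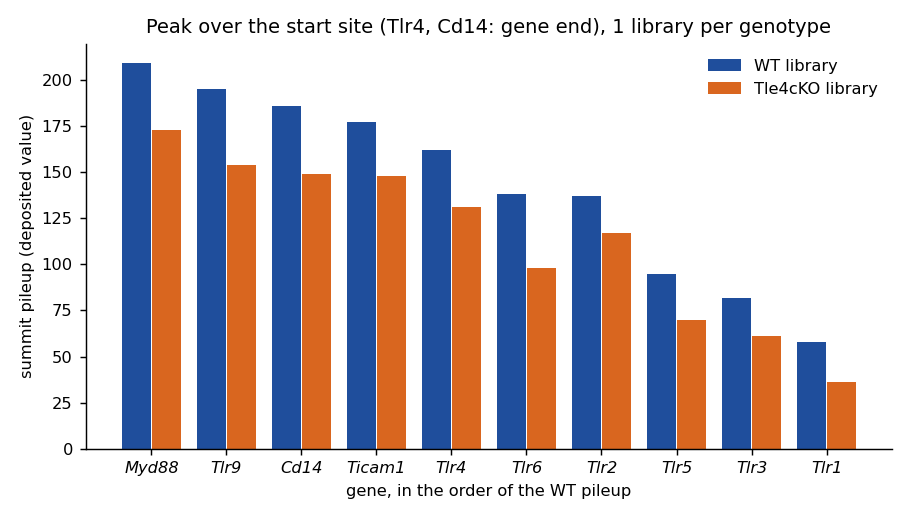
Summit pileup of the peak over the start site, or over a gene end for Tlr4 and Cd14, in the WT (blue) and Tle4cKO (orange) library, with genes in the order of the WT value. Values fall from 209 to 58 in WT and from 173 to 36 in Tle4cKO, and only Tlr2 and Tlr6 change places. The Myd88 peak is shared with the promoter of Acaa1a.

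Nearly all member elements were found in both genotypes. Of the 48 WT peaks, 5 were WT-only, that is, without any overlap with a Tle4cKO peak (10.4%, 95% Wilson interval 4.53% to 22.2%), against 27.1% of all WT peaks. Of the 46 Tle4cKO peaks, 1 was Tle4cKO-only (2.17%, 0.385% to 11.3%), against 23.5% of all Tle4cKO peaks. The members were stronger than the lists as a whole, with a median pileup of 88.5 in WT and 69 in Tle4cKO, and weak peaks are more often in 1 list only. The shares of list-only peaks among all peaks within 10% of each member's pileup sum to 3.11 for the WT and 0.945 for the Tle4cKO members, beside the 5 and 1 found. No peak over a start site or gene end was among these 6, and 4 of them lay in the flanks.

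The 6 list-only peaks were narrow, at 200 to 278 bp. The strongest was a WT-only peak of pileup 63 between Fem1a and Ticam1 (chr17:56264293-56264500). It lay 364 bp from the tallest WT member peak and 438 bp from the Tle4cKO counterpart of that peak, and among WT peaks of like pileup 3.33% were WT-only. The others of WT were a peak of 38 between Tlr9 and Alas1 (chr9:106231776-106232050), one of 31 inside Fam114a1 next to Tlr6 (chr5:64971849-64972088), one of 11 inside Tlr4 (chr4:66835156-66835433) and one of 10 inside Tlr5 (chr1:182972525-182972724). Among peaks of like pileup 8.72%, 10.5%, 72.4% and 78.4% were WT-only. The Tle4cKO-only peak, of pileup 32, lay 6310 bp from Tlr5 on its start side (chr1:182948239-182948442), and 2.47% of Tle4cKO peaks of like pileup were Tle4cKO-only.

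The heights of the 43 member pairs followed those of like pairs. The WT pileup was higher in 42 of them and equal in 1, beside the 90.8% of all pairs. The median relative log2 ratio was 0.02, with 24 pairs above and 19 below like pairs. Over all pairs the median is 0 by construction. A relative log2 ratio of at least 0.3 was found in 1 member pair, at Cd14, against 13.5% of all pairs, and one of -0.3 or lower in 1, at Tlr3, against 14.1%. Weak pairs scatter more. Among the 29395 pairs with a summed pileup in the interquartile range of the member pairs, 5.76% and 6.80% passed these values. The 95% counting interval of the raw ratio included the ratio of like pairs in all 43 member pairs, while over all pairs it lay above in 0.686% and below in 0.615%. The medians by gene ran from -0.13 at Tlr3, with 2 pairs, to 0.06 at Cd14 and Tlr2.

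**Figure D3:**
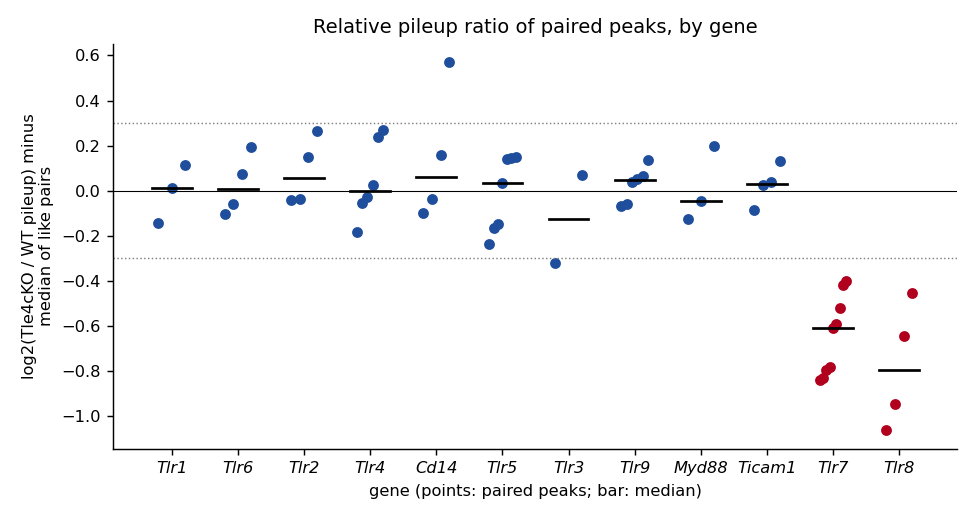
Relative log2 ratio (Tle4cKO over WT pileup, minus the median of like pairs) of every paired peak, by gene; bars are medians, dotted lines mark 0.3 either way, blue the 10 members and red Tlr7 and Tlr8. Of the members 1 pair of Cd14 and 1 of Tlr3 pass the dotted lines, while all 13 pairs of Tlr7 and Tlr8 lie below the lower line.

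The WT peak was wider in 30 of the 43 pairs (69.8%), beside 69.5% of all pairs and 68.6% of pairs of like summed pileup. The median width ratio of Tle4cKO to WT was 0.977, against 0.931 over all pairs and 0.956 over pairs of like summed pileup. Summits lay a median of 30 bp apart, against 44 bp over all pairs and 24 bp over those of like pileup. They were at most 50 bp apart in 29 member pairs (67.4%), beside 53.5% of all pairs and 67.6% of those of like pileup. In 9 member pairs (20.9%) they were at least 300 bp apart, beside 16.1% of all pairs and 12% of those of like pileup. These 9 included the start peaks of Tlr1 and Tlr6, and no start peak of the other 8 genes moved by more than 63 bp. A WT peak met 2 Tle4cKO peaks in 2 cases, at Tlr3 and Tlr5, beside 4.27% of all WT peaks, and the reverse occurred in 0 cases, beside 1.19% of all Tle4cKO peaks.

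**Figure D4:**
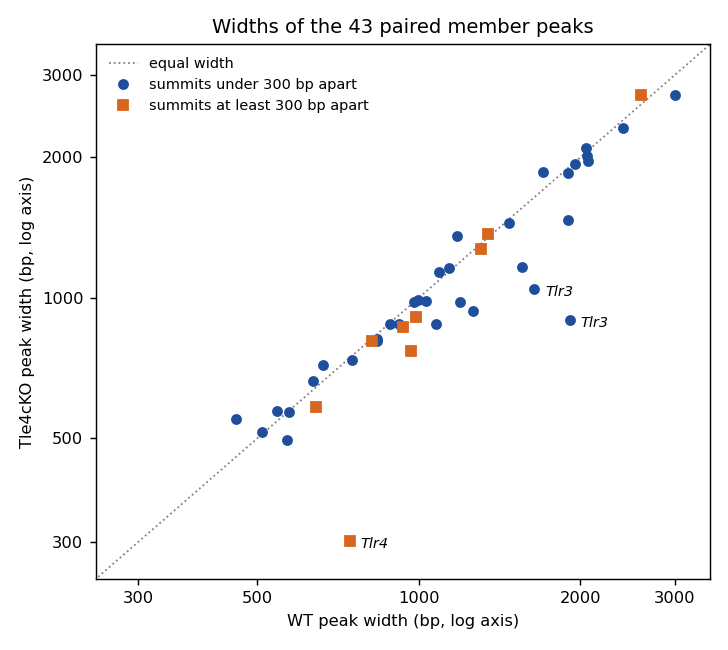
Width of the WT peak against that of the Tle4cKO peak for the 43 member pairs, on log axes in bp; orange squares are the 9 pairs with summits at least 300 bp apart and the dotted line marks equal width. Most points lie near that line, and both Tlr3 pairs and a weak Tlr4 pair are named because they are much narrower in Tle4cKO.

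Of 45 other genes of the pathway, all matched the gene table and all had a peak in both lists. The share of all genes with a peak in such a window was not computed, so this count is not read as a trait of the pathway. Tlr7 and Tlr8, the endosomal receptors for single-stranded RNA, which lie next to each other on the X chromosome, had lower relative pileup in the Tle4cKO library. Tlr7 had a median relative log2 ratio of -0.61 over 9 pairs and Tlr8 one of -0.80 over 4, so that WT was 1.52-fold and 1.74-fold higher relative to like pairs. All 13 pairs lay at -0.3 or lower, against 14.1% of all pairs, and the counting interval lay below the ratio of like pairs in 8, against 0.615%. The peak over the Tlr8 start (chrX:167262013-167264546) had a WT pileup of 125 and a Tle4cKO pileup of 67, and the highest WT peak of Tlr7 (chrX:167318514-167319698) had 126 and 53. Of the 17 WT peaks of these windows 4 were WT-only (23.5%), with pileups of 9 to 19, a share below the 27.1% of all WT peaks. None of the 16 Tle4cKO peaks was Tle4cKO-only, beside 23.5% of all. Unlike those of the members, these shares were not set against peaks of like pileup.

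The low values were not limited to the Tlr7 and Tlr8 windows. Of the 48 pairs within 250 kb of their joint span and outside both windows, 47 lay below like pairs, with a median of -0.58, and in 27 the interval lay below. Over the 1645 pairs of the X chromosome more than 5 Mb away the median was -0.04. Other X-linked genes of the pathway also stood nearer to like pairs, with medians of -0.15 at Tlr13 (7 pairs), -0.09 at Irak1 (3 pairs) and 0.13 at Ikbkg (5 pairs). Of the receptors outside the 10 members, Tlr11, Tlr12 and Tlr13 together had a median of -0.06 over 18 pairs.

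**Figure D5:**
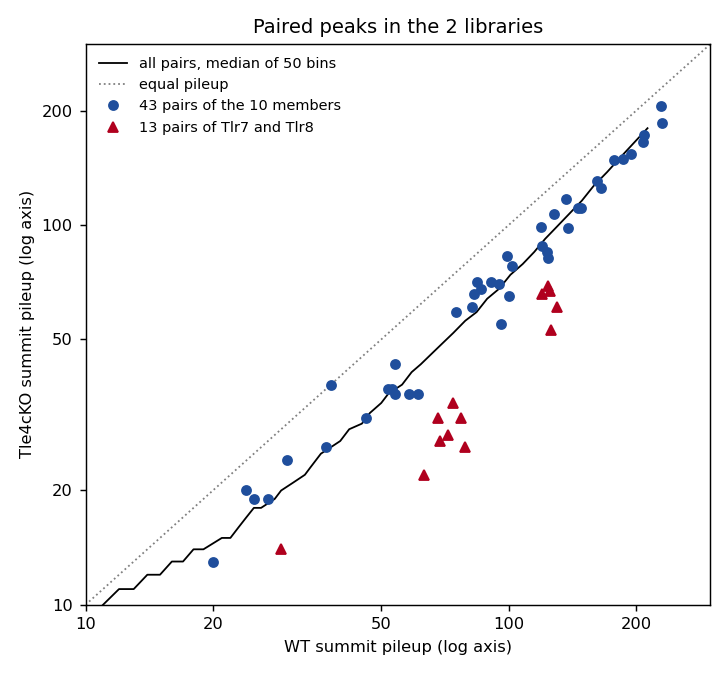
Tle4cKO against WT summit pileup of paired peaks on log axes: blue circles are the 43 member pairs, red triangles the 13 pairs of Tlr7 and Tlr8, the black line the medians of all pairs in 50 bins of summed pileup and the dotted line equal pileup. Member pairs follow the black line, and the red triangles all lie below it.

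The rest of the pathway stood close to like pairs. Without Tlr7 and Tlr8, the 43 genes had 109 WT-only of 466 WT peaks (23.4%) and 67 Tle4cKO-only of 436 Tle4cKO peaks (15.4%), beside 27.1% and 23.5% of all peaks. Here too, peaks of like pileup were not compared. The median relative log2 ratio of these genes was -0.001 over 352 pairs. At 0.3 or more were 11.6% of these pairs and at -0.3 or lower 10.5%, beside 13.5% and 14.1% of all pairs. For these shares, pairs of like pileup were not compared. The transcription factor genes had a median of 0.05 over 59 pairs, the inhibitors 0.03 over 43, the trafficking and folding genes 0.03 over 18, the accessory ligand-binding genes -0.01 over 47, the kinases and ubiquitin ligases -0.04 over 116 and the adaptors -0.05 over 51.

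By gene, the lowest median after Tlr8 and Tlr7 was -0.37 at Traf6 (4 pairs), the ubiquitin ligase downstream of Myd88. The highest were 0.30 at Sigirr (4 pairs), an inhibitory receptor, 0.27 at Map3k7 (6 pairs), which encodes the kinase TAK1, and 0.22 at Nfkbia (5 pairs), which encodes the NF-kappaB inhibitor IkappaB-alpha. The counting interval included the ratio of like pairs in every pair of Traf6, Sigirr and Nfkbia. At Map3k7 it lay above in 1 pair, as it also did at Ripk1, Nfkb1 and Tnfaip3. Without Tlr7 and Tlr8, it lay above in 4 of the 352 pairs of the other pathway genes and below in 0. The shares over all pairs were 0.686% and 0.615%. The most list-only peaks lay at genes with many peaks. Traf3 held 15 WT-only peaks among its 32 in the WT list and 9 Tle4cKO-only peaks among its 25 in the other, beside 27.1% and 23.5% over all peaks. At Cd36 these counts were 9 of 29 and 6 of 28, at Pik3ap1, a PI3-kinase adaptor gene, 8 of 43 and 11 of 46, and at Nfkb1 4 of 37 and 8 of 42.

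The windows also hold elements of other genes. Of the WT member peaks 9, and of the Tle4cKO member peaks 8, overlapped the span of a neighbour. The members nearest the edge of the 10 kb were a WT peak of pileup 27 at 9260 bp from Tlr9 and a Tle4cKO peak of 83 at 9289 bp from Tlr6. The nearest peaks left out were a WT peak of 83 at 10093 bp from Tlr4 and a Tle4cKO peak of 60 at 10194 bp from Tlr9.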

How the data were processed

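Per the submitters' processing notes, which give no roles, the build was mm10 and the tools included MACS2 2.1.1, Bowtie2 2.2.5 and HOMER 4.7.2. The authors deposited a separate peak list for each library. Its summit pileup, a deposited signal per the file headers, takes whole numbers of 7 or more. For calling thresholds, read totals and scaling, nothing is given in the sources used here.

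Members and gene lists were chosen with earlier results of these data known. Sharing needed an overlap of 1 bp and was checked with bedtools 2.31.1. Pairs were sorted into 50 bins of summed pileup, and each log2 ratio was taken relative to its bin's median. Ratios have exact Clopper-Pearson and shares Wilson intervals at 95%. They cover counting error only, and a summit height is a maximum, for which they are approximate. Steps were tested on simulated data with Python 3.11.15 and scipy 1.17.1. With 1 library per genotype no test between genotypes was made. Single peaks were described where they were the highest of a gene, covered a start, were in 1 list only, or had a relative log2 ratio of 0.3 or more either way. Other peaks were chosen after their values were seen. Other pathway genes were named for Tlr7 and Tlr8, the 3 highest counts of list-only peaks in each list, and the 3 lowest and 3 highest medians with at least 3 pairs. Tlr11, Tlr12, Tlr13, Irak1, Ikbkg, Ripk1 and Tnfaip3 were named after their values were seen. Alternatives changed the flank, the pileup minimum, the overlap rule, the pairing and the centring.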

Additional observations from a re-analysis of the deposited data

How the results depend on the processing

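The median relative log2 ratio of the member pairs stayed between 0.01 and 0.05 over its 6 alternatives, less than the counting error of the summed pileups. Counts moved with the window. With the gene span alone, there were 22 WT and 21 Tle4cKO peaks, with 2 WT-only and 0 Tle4cKO-only among them. With 50 kb on either side there were 147 and 145, of which 17 and 11 were list-only, and with 5 kb the Tle4cKO-only count was 0. With a pileup of at least 15 or of at least 20, 3 WT-only peaks remained in each case. The pairs of Tlr3 and Cd14 that lay furthest from like pairs kept their direction under both alternatives run for them. No paired analysis was possible because each genotype has 1 library. Without read totals, heights cannot be compared between libraries other than relative to like pairs, and counts of 5 and 1 list-only peaks allow no finer statement.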

Other observations

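The 250 bases before the annotated starts differed widely in base composition. A relation to the order of the start peaks was not tested, and the summits at Tlr9 and Myd88 lay further upstream than these bases. Tlr9, with the second highest start peak, had 0 CpG dinucleotides and a GC content of 50.4%. Tlr2 had 11 CpG and the highest GC content, 62.8%, and Ticam1 and Myd88 had 9 each. The upstream Tlr1 window had 1 CpG and the lowest GC content, 39.2%, and the downstream one had 8 and 49.2%. Over all windows of the table the medians were 6 and 52.4%. These are values of the reference sequence, and DNA methylation was not analysed here.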
